A study of Mus musculus with 20 samples.

Results

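Processed pseudogenes are copies of a spliced mRNA that were written back into the genome, so they lack the introns of the parent gene. The genes of the cytosolic ribosomal proteins, which build the large (RPL) and small (RPS) subunits of the ribosome and are among the most transcribed genes of a liver cell, have left many such copies in human and mouse. A young copy can match its parent mRNA almost base for base, and a short read that falls on a matching stretch cannot be placed by its sequence alone.

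Ribosomal protein pseudogenes were taken as genes annotated as a pseudogene whose symbol is that of a ribosomal protein followed by P and a number (human) or by -ps (mouse), with a mean of at least 1 TPM (a level scaled by gene length and library size) over the livers of their table. This gave 102 of 1144 human pseudogenes with such names and 87 of 304 mouse pseudogenes. The members were thus chosen by their mean TPM, so their levels are given here as a description. They came from 53 human and 43 mouse parent genes, with 59 human copies of large subunit genes and 43 of small subunit genes, and 45 and 42 in mouse. Of the human members, 93 were annotated as processed, 8 as transcribed processed and 1 as a transcribed unprocessed pseudogene, and of the mouse members 82 were processed and 5 transcribed processed. Just inside the threshold were human RPS27P29 and RPSAP55, both with a mean of 1.00 TPM, and mouse Rpl10-ps1 at 1.01 and Rpl27-ps3 at 1.06. Just outside were RPL12P20 at 0.999, RPS26P6 at 0.996, Rpl7a-ps11 at 0.996 and Rpl30-ps1 at 0.886 TPM.

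The livers came from 8 humanized and 12 WT mice. Humanized mice were TK-NOG animals, immune-deficient mice with a TK transgene under a mouse albumin promoter, which were given ganciclovir (25 mg/kg) at 8 to 9 weeks of age to remove their own hepatocytes and were then transplanted with human hepatocytes. They were used once serum human albumin was above 0.5 mg/ml, so that their livers still held mouse cells, and only human genes were listed for them. The humanized livers were used 8 to 12 weeks after transplantation. WT mice were male C57BL/6, bought at 8 weeks of age and acclimatized for 10 to 14 days. In each set, 1 group received an adenovirus that expresses an shRNA against HuR (ELAVL1), an RNA-binding protein that stabilises many mRNAs, and the other the LacZ control virus, both at 2000000000 pfu per mouse. The shRNA differed between the sets: it was directed at human HuR in humanized mice and at mouse HuR in WT mice. Livers were taken on day 7 after a 4 h fast, from 4 humanized and 6 WT mice per group. HuR itself fell in both sets: human ELAVL1 was at 3.46 ± 0.763 TPM in HuR KD and 5.67 ± 0.623 TPM in LacZ (SD, n = 4; two-sided exact permutation p = 0.029), and mouse Elavl1 at 4.91 ± 0.694 against 9.5 ± 0.789 TPM (SD, n = 6; exact permutation p = 0.0022). All 6 hepatocyte markers were at 1 TPM or more in the humanized livers. No human Kupffer cell, endothelial or lymphocyte marker was, whereas 1 of 4 stellate cell and 3 of 4 cholangiocyte markers were. The summed cholangiocyte markers were at 4.71 to 26.8 TPM in HuR KD and 10.1 to 34.9 TPM in LacZ. The summed stellate cell markers were low but did not overlap between the groups, at 0.757 to 1.68 TPM in HuR KD and 2.53 to 4.67 TPM in LacZ, and the part of either cell type in the results below was not tested. In the WT livers the summed Kupffer cell and macrophage markers were at 276 to 480 TPM in HuR KD and 396 to 538 TPM in LacZ, and their part in the results below was not tested.

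Reads on listed genes, recovered from the steps in which the TPM values move, ranged from 2670469 to 20302454 per library in the humanized livers. They ranged from 1423985 to 44668272 in the WT livers. In the humanized livers these are reads on human genes only, so reads from the mouse cells are not counted. Reads, depth and the order of libraries below refer to these recovered reads. The depth limits what can be said of a single pseudogene. In the shallowest libraries the median member rested on 3.5 reads in the humanized and 3 reads in the WT livers, and in the deepest on 23.5 and 79 reads. WT HuR KD replicate 6 (12960373 reads) and LacZ replicate 2 (1423985 reads) stood apart from the other livers of their groups, so WT results are given with and without them.

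The sequences of 4 mouse pairs are shown because they cover the cases the values turn on. These are a copy with no difference from its parent, abundant copies with a few differences, and a copy whose level moved against its parent. Each stretch of 90 bases lies in the coding sequence of the parent transcript (GENCODE M21, build GRCm38), is written 5′ to 3′ on the strand of the gene, and capitals mark the bases at which copy and parent differ. Rpl38-ps2 (chr6:140747083-140747172, minus strand) shared all 90 bases with Rpl38, which encodes a large subunit protein, so the run stands for both. Rpl14-ps1 (chr7:45325485-45325574, plus strand) is a copy of the large subunit gene Rpl14. Rps10-ps2 (chr16:20822164-20822253, minus strand) is a copy of the small subunit gene Rps10. Rpl10-ps6 (chr19:37295296-37295385, minus strand) is a copy of the large subunit gene Rpl10 and lies inside Ide, the gene of the insulin-degrading enzyme, on the same strand.
Rpl38-ps2: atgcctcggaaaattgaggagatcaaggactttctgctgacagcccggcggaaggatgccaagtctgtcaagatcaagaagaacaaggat
Rpl14-ps1: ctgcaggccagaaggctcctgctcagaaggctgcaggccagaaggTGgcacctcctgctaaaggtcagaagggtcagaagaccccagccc
Rpl14: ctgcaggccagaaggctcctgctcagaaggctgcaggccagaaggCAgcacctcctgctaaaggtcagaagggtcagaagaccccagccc
Rps10-ps2: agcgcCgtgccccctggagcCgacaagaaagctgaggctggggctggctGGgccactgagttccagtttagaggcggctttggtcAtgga
Rps10: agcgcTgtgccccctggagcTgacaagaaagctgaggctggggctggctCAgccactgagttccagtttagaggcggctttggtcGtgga
Rpl10-ps6: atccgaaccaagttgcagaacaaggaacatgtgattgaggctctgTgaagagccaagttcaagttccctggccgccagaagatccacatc
Rpl10: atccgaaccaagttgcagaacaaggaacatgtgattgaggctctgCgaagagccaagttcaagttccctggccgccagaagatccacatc

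The 213 bases of Rpl38-ps2 held 0 substitutions. Rpl14-ps1 held 4, and 3 gap bases, over its 653 bases and Rps10-ps2 held 5 over 496, all 5 within the stretch shown. Rpl10-ps6 held 1 substitution over 642 bases, C543T counted from 1 at the 5′ end of the Rpl10 transcript, which turns the codon cga into the stop codon tga. WT reads were 50 bases long, so each copy was also cut into all its windows of 50 bases. Every one of the 164 windows of Rpl38-ps2 occurred in a transcript of another gene as well, and 131 of 604 windows of Rpl14-ps1, 104 of 447 of Rps10-ps2 and 45 of 593 of Rpl10-ps6 occurred in no other gene's transcripts. The genome outside annotated transcripts was not used here, and the second read of a pair can reach outside the copy, so these windows describe single reads.

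Mouse copies with fewer differences from their parents more often reached 1 TPM, the level by which members were chosen. Over the 87 mouse members the median identity to the parent mRNA was 99.1% and a median of 59.5% of the windows also occurred in a parent transcript, compared with 94.9% and 5.10% for the 215 named copies under 1 TPM that could be aligned. All 14 copies with 0 substitutions were members, as were 36 of 54 with 1 to 5, 31 of 108 with 6 to 20 and 4 of 116 with more than 20 substitutions. Over all copies of these classes, members or not, the median level was 46.1, 4.21, 0.212 and 0.00605 TPM, and single copies departed from that order: Rpsa-ps10, with 6 substitutions, was at 71.6 TPM, and 18 of the 54 copies with 1 to 5 lay under 1 TPM. Of the windows that members shared with their parents, 39.2% crossed an exon junction of the parent mRNA, where the copy has none. For the named copies under 1 TPM this share was 34.9%. Few differences did not go with a high level in each case: Rpl38-ps2, Rpl10-ps1 and Rpl15-ps3 all held 0 substitutions, at 261, 1.01 and 1.42 TPM. In total, 15 of the 87 members held no window of their own. These 15 had a median of 46.6 TPM and summed to 857 TPM, compared with a median of 7.45 TPM in the other 72. A further 18 copies under 1 TPM also held no window of their own, 10 of them listed at 0, so that such copies lay at both ends of the range.

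**Figure D1:**
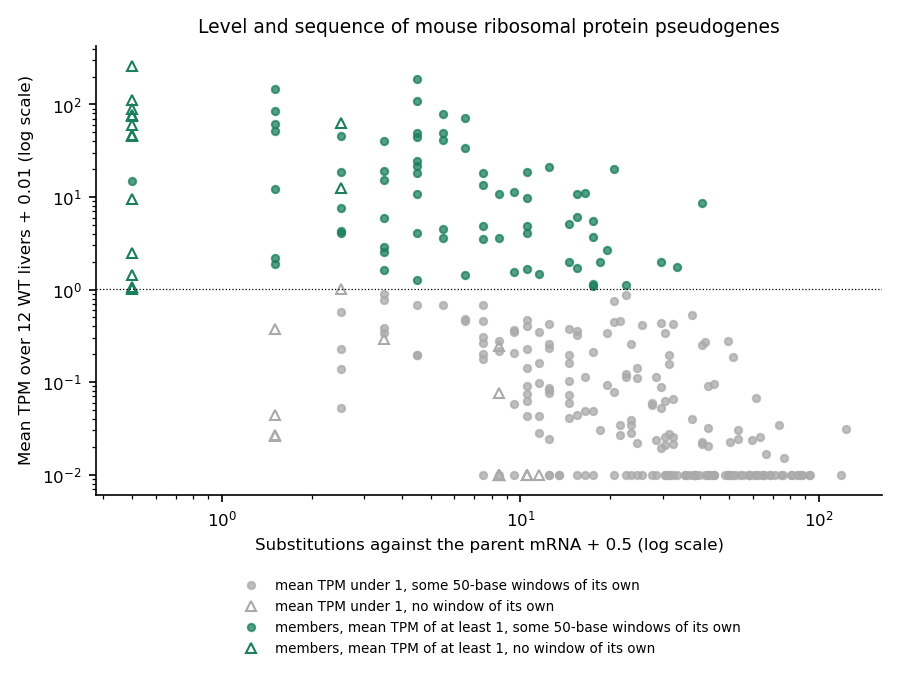
Each point is a mouse ribosomal protein pseudogene with over 90% of its length aligned to the parent mRNA; the x axis gives its substitutions + 0.5 and the y axis its mean TPM over the 12 WT livers + 0.01, both on log scales. Triangles have no 50-base window of their own, green points are members and grey points lie under 1 TPM (dotted line); all 14 copies with 0 substitutions are green.

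The most abundant human members were copies of both subunits. RPS28P7, a copy of the small subunit gene RPS28, was listed at 113, 150, 180 and 150 TPM in HuR KD replicates 1 to 4 and 109, 155, 112 and 181 TPM in LacZ, where its parent RPS28 had a mean of 21.2 TPM over all 8 livers. The groups overlapped (log2 fold change 0.10 ± 0.21 SE, adjusted p = 0.901, limma). RPL3P4, a copy of the large subunit gene RPL3, was at 108, 77.9, 81.1 and 90.6 TPM in HuR KD and 96.0, 117, 146 and 95.7 TPM in LacZ, again with overlapping groups (-0.33 ± 0.18, adjusted p = 0.517). RPL39P3, RPS2P5, RPL10P6, RPL41P1, RPS7P1 and RPL10P9 followed with means of 88.3, 76.5, 68.7, 58.2, 58.2 and 57.3 TPM, none of them past an unadjusted p of 0.05. The median member was at 3.24 TPM, 30 members reached 10 TPM, and 57 had a value above 0 in all 8 livers.

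In WT mice Rpl38-ps2 was the highest member. It ranged from 221 to 326 TPM in HuR KD with a median of 272 and from 210 to 390 TPM in LacZ with a median of 220.5. The highest value of either group was that of LacZ replicate 2, the library of fewest reads, and the groups overlapped (log2 fold change 0.17 ± 0.15, adjusted p = 0.636, limma). Rpl14-ps1 ranged from 170 to 234 TPM in HuR KD with a median of 210 and from 157 to 179 TPM in LacZ with a median of 177, and HuR KD replicate 6 was the liver that kept the groups from separating (0.28 ± 0.08, unadjusted p = 0.00372, adjusted p = 0.108, limma). Rpl39-ps, Rpl36a-ps2, Rps25-ps1, Rpl10a-ps1, Rpl19-ps11 and Rps10-ps2 had means of 148, 111, 108, 90.1, 85.9 and 79.1 TPM. The median mouse member was at 9.64 TPM, 43 reached 10 TPM, and 67 had a value above 0 in all 12 livers.

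**Figure D2:**
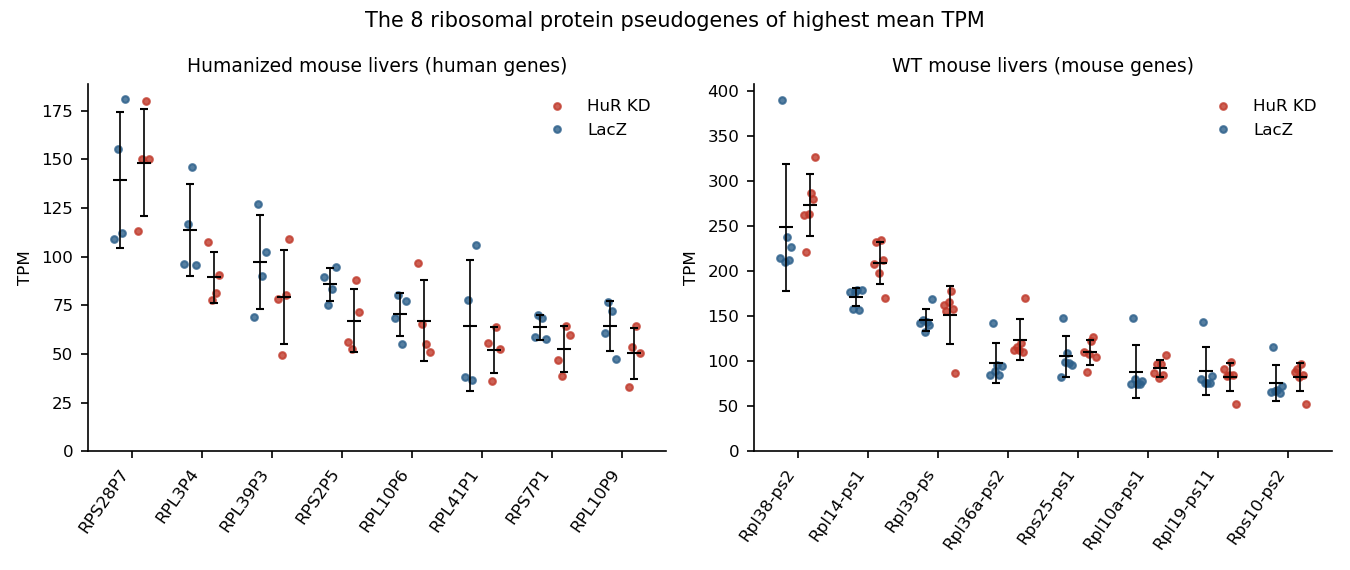
TPM of the 8 human (left) and 8 mouse (right) ribosomal protein pseudogenes of highest mean TPM. Points are livers, red for HuR KD and blue for LacZ, with the group mean and SD in black (n = 4 and n = 6 per group); the groups overlap for all 16.

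Some copies were listed above the gene they were copied from. This held for 18 of 102 human and 12 of 87 mouse members, and the median member stood at 7.99% of its parent in human (93 pairs with a parent of at least 1 TPM) and 12.4% in mouse. TPM corrects for length, so these are levels per base of the annotated gene. The annotated lengths were unlike: over all its transcripts Rps10 had 2311 exonic bases and Rpl17 1327, and the median mouse member had 475. The values are therefore not levels over the same bases, and the part of length in them was not tested. Rps10-ps2 was at 79.1 TPM and Rps10 at 6.99 TPM, and Rps10 shared 20.6% of its exonic bases with exons of other genes on its strand. Rpl17-ps5 and Rpl17-ps10, copies of a large subunit gene, were at 62.8 and 49.5 TPM and Rpl17 at 7.29 TPM, and Rpl17 shared 0% of its exonic bases in this way. In human, RPS28P7 stood at 677% of RPS28, RPL41P1 at 365% of RPL41 and RPL21P16 at 167% of RPL21. For 9 human members the parent was under 1 TPM, although ribosomal proteins are needed by every cell: RPL7A was listed at 0.308 TPM while its 6 member copies summed to 53.8 TPM, and RPS18 was listed at 0.104 TPM. RPL7AP6 alone was at 33.1 TPM. At the other end, RPS12P27 and RPS12P26 stood at 0.313% and 0.285% of RPS12.

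The members' share was taken of the summed TPM of the members and all protein-coding ribosomal protein genes, those without a member included, and the ranges of both groups overlapped in each set. It was 18.7 ± 0.903% in HuR KD and 18.2 ± 0.957% in LacZ of the humanized livers (SD, n = 4), and 15.4 ± 0.512% and 16.04 ± 1.28% in the WT livers (SD, n = 6). Y-linked forms were left out of the sum. In WT, 10 livers lay between 15.3% and 15.7%. HuR KD replicate 6 was lower, at 14.4%, and LacZ replicate 2 was higher, at 18.6%. Over all 12 livers the mean share was lower in HuR KD. Without these 2 livers it was higher, by 0.0771 percentage points, at 15.59 ± 0.152% in HuR KD and 15.51 ± 0.120% in LacZ (SD, n = 5).

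**Figure D3:**
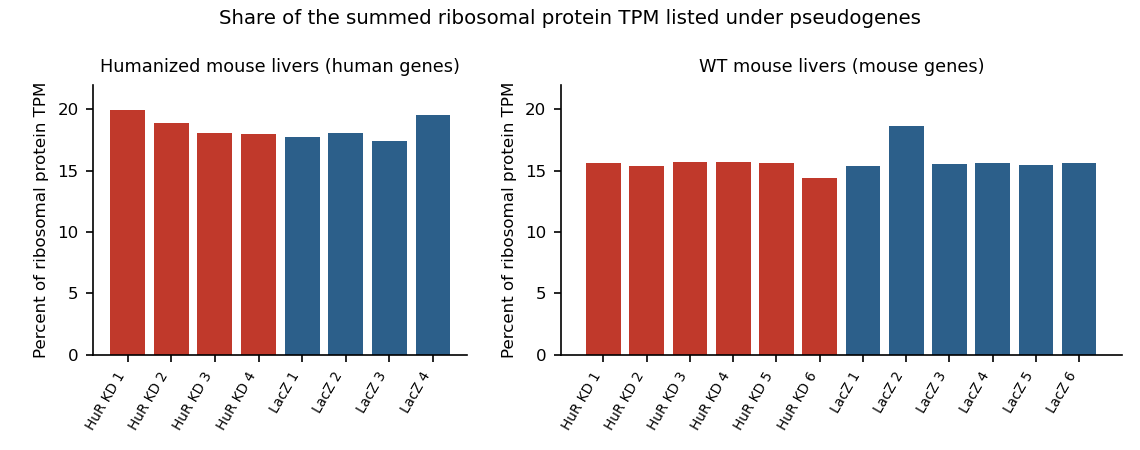
Share of the summed TPM of ribosomal protein pseudogenes and protein-coding ribosomal protein genes that was listed under the pseudogenes, in percent, 1 bar per liver, red for HuR KD and blue for LacZ. In WT livers the shares lie close together except for HuR KD 6 (14.4%) and LacZ 2 (18.6%).

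HuR KD was then compared with LacZ for each member and its parent, to ask whether the copies moved with the genes they share sequence with. In the humanized livers 70 of 102 members had a negative log2 fold change. Their median was -0.25, compared with -0.05 over all 12738 genes tested and -0.33 over the 50 parent genes tested. At an unadjusted p under 0.05, 7 members were lower (background 7.87% of all genes tested) and 0 were higher (background 3.6%; also 0 with voom on reads recovered from the TPM, background 4.72%). After adjustment 1 member was called (background 0.212% in either direction), RPL41P5, with the limits given below. The groups did not overlap for 4 members, all lower (background 5.03%; 2.13% for higher). Large subunit copies had a median of -0.26 (4 of 59 lower) and small subunit copies of -0.20 (3 of 43 lower). Of the parent genes, 22 of 50 were lower and 0 higher. The 3 humanized libraries of fewest reads, HuR KD replicates 1 and 2 and LacZ replicate 4, were also left out. The median of the members was then -0.07, that of all genes 0.04 and that of all ribosomal protein genes tested -0.15. In that fit 6 members were lower (background 2.38%) and 3 higher (background 2.9%).

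The 7 lower human members were copies of RPL41, RPL13, RPSA, RPS3A, RPL6 and RPL24, all of them genes of ribosomal proteins. RPL41P5 was listed at 0 in all 4 HuR KD livers and at 3.30, 5.84, 3.46 and 15.7 TPM in LacZ. This was the largest fall and the call that passed adjustment (adjusted p = 0.0455, limma). Its mean of 3.54 TPM came from the LacZ livers alone, so RPL41P5 passed the threshold of 1 TPM only through the group where it was high. Values of 0 throughout also left its HuR KD group without spread, so the call is given as a value only. It rested on few reads: 1, 5, 1 and 2 in the LacZ libraries. Pooled over the livers, 0 reads of 34486179 in HuR KD stood beside 9 of 36134260 in LacZ, 5 of them from 1 library. Pooled reads are not replicate livers, so no fold change is drawn from them. RPL13P12 was at 17.1, 17.5, 15.3 and 16.4 TPM in HuR KD and 19.8, 23.9, 29.7 and 33.7 TPM in LacZ, so that all HuR KD livers lay below all LacZ livers (log2 fold change -0.63 ± 0.17, adjusted p = 0.191). RPS3AP6 ranged from 4.03 to 7.599 TPM against 8.59 to 20.05 TPM (-0.86 ± 0.27, adjusted p = 0.264) and RPL6P27 from 6.62 to 18.5 TPM against 20.2 to 47.8 TPM (-0.96 ± 0.35, adjusted p = 0.33), also without overlap. For both, LacZ replicate 4, which had 3169425 reads, was the highest liver. In the 5 deepest libraries RPS3AP6 had -0.34 (unadjusted p = 0.101, limma) and RPL6P27 had -0.33 (unadjusted p = 0.086). Neither call held there, and RPL41P5 had -2.35 with an adjusted p of 0.926. Leaving out HuR KD replicates 1 and 2 and LacZ replicate 4 also made both groups smaller. The part of depth and that of group size in these values were not tested. RPSAP58, RPS3AP5 and RPL24P4 overlapped, with log2 fold changes of -0.52, -0.74 and -0.77. The parents RPL13, RPS3A and RPL6 had values of -0.39, -0.37 and -0.46, and RPL41 of -0.19 ± 0.34.

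In the WT livers the direction was the other one. A positive log2 fold change was found for 67 of 87 members, with a median of 0.17, compared with 0.03 over all 15090 genes tested and 0.21 over the 43 parent genes. The limma fit called 16 members higher (background 9.09%) and 1 lower (background 6.94%) at an unadjusted p under 0.05, and 0 after adjustment (background 0.888%). Voom on recovered reads called 21 higher (background 12.3%) and 2 lower (background 7.75%) at the same unadjusted threshold, and median-of-ratios factors left 9 higher (background 7.83%). No member had groups that did not overlap (background 1.25% higher and 1.23% lower), compared with 13 of the 43 parents, of which 29 were called higher. Without HuR KD replicate 6 and LacZ replicate 2, 43 members were higher (background 15.4%) and 1 lower (background 7.79%), 10 passed adjustment (background 5.24%), and the median was 0.24. In those 10 livers 42 of 43 parents were called higher, and 35 passed adjustment. The human and mouse tables were normalized apart, the shRNA differed with the species, and the difference between the species was not tested.

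Of the 16 higher mouse members, 8 were large and 8 small subunit copies. Rps12-ps4, a copy with 0 substitutions and a gap of 2 bases, ranged from 14.6 to 19.4 TPM in HuR KD and from 11.0 to 17.1 TPM in LacZ (log2 fold change 0.36 ± 0.11, adjusted p = 0.134; 0.44 for Rps12). In LacZ the 17.1 TPM was that of replicate 2, and all the other LacZ livers lay below all HuR KD livers. Rpl36a-ps2, with 0 substitutions, ranged from 111 to 170 TPM against 84.4 to 143 TPM (0.34 ± 0.14, adjusted p = 0.258), and Rpl36a itself rose by 0.31 (adjusted p = 0.0268). Without the 2 livers that stood apart, the value of Rpl36a-ps2 was 0.35 with an adjusted p of 0.00706. Rpl36a-ps2 lies inside Ddah1 on the same strand, and Ddah1 had a log2 fold change of -0.36 (unadjusted p = 0.0652, limma). Rps10-ps2 ranged from 52.6 to 96.7 TPM against 64.5 to 116 TPM over 12 livers (0.14 ± 0.17) and had a value of 0.39 (adjusted p = 0.00641) over 10 livers. Rpl19-ps11, with 1 substitution, changed sign between the fits: -0.09 (adjusted p = 0.85) over 12 livers and 0.18 (unadjusted p = 0.00827, adjusted p = 0.0859) over 10.

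**Figure D4:**
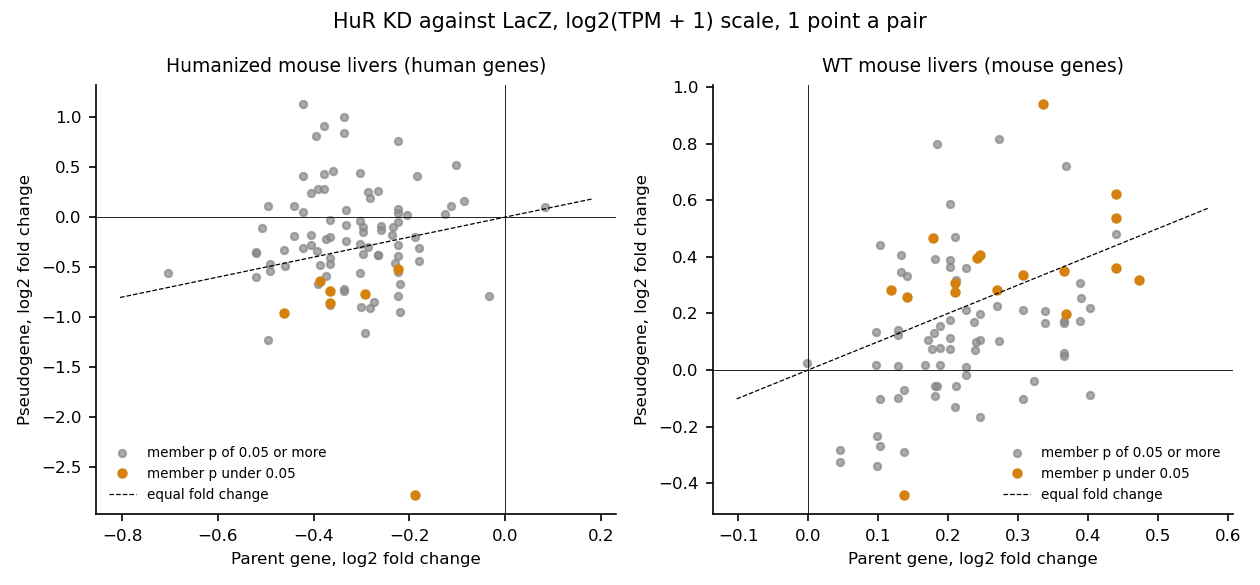
Log2 fold change (HuR KD minus LacZ on the log2(TPM + 1) scale) of each ribosomal protein pseudogene against that of its parent gene, 1 point per pair, for 93 human (left) and 87 mouse (right) pairs; members of a parent share its x value. Orange points have an unadjusted p under 0.05 for the member, the dashed line marks equal fold changes, and the axes of the 2 panels differ. All but 1 human parents lie left of 0 and all but 1 mouse parents right of 0, while members scatter to both sides of the line.

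A member had the sign of its parent in 65 of 93 human pairs and 66 of 87 mouse pairs. In human, 1 of the 93 pairs had a parent with a positive value, and in mouse 86 of 87 did, so these counts nearly repeat the direction of the members. The ratio of a member to its parent was then compared directly in each liver, as the difference of their log2(TPM + 1). An exact two-sided permutation test of HuR KD against LacZ gave a p under 0.05 in 4 of 93 human pairs (4.3%) and 5 of 87 mouse pairs (5.75%), with raw p values that are not adjusted over the pairs. The smallest p the design allows is 0.029 for 4 against 4 livers and 0.0022 for 6 against 6. In mouse the share is close to the 5% that the threshold allows. With 4 against 4 livers no other attainable p lies under 0.05, so the rate to set beside the human share is lower than 5%. Pairs with the same parent are also not independent. The shares therefore settle nothing, and the pairs named below are given as values. The median change of the log ratio was 0.12 in human and -0.09 in mouse, and -0.02 over the 10 WT livers. The added 1 TPM weighs more on a low member than on a higher parent. Equal fold changes in TPM can thus give a positive ratio change where both fall and a negative one where both rise. The median SD of a member within groups was 0.63 in human and 0.39 in mouse on the log2 scale, compared with 0.18 and 0.14 for the parents, and the ratio to the parent was as variable as the member itself (0.62 and 0.41). Over the 10 WT livers the median SD was 0.21 for both the members and the ratios.

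Among the human pairs, RPL7P9 had a log ratio to its parent higher by 0.25 in HuR KD (exact permutation p = 0.029): RPL7P9 had 26.8 ± 2.59 TPM in HuR KD and 31.1 ± 6.72 TPM in LacZ (SD, n = 4), a log2 fold change of -0.19, and RPL7 had -0.44. The log ratio of RPL10AP6 to RPL10A differed by 0.83, with 1 HuR KD liver at 8.17 TPM and the other livers of both groups between 2.07 and 3.55 TPM. RPL31P7 was listed at 0 in 7 of 8 livers and at 8.48 TPM in HuR KD replicate 1, so that its ratio followed RPL31 in those 7 livers. The log ratio of RPL41P5 to RPL41 differed by -2.59, on the reads given above, and RPL41P5 passed the threshold only through LacZ.

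Among the mouse pairs, Rpl10-ps6 was the 1 member at the smallest p, and the only one called lower in both WT fits. It was at 2.28, 1.22, 1.79, 1.23, 2.22 and 1.46 TPM in HuR KD and at 3.31, 2.64, 2.62, 2.57, 2.27 and 2.38 TPM in LacZ, so that the groups overlapped by 1 liver. Its log2 fold change was -0.44 ± 0.12 (adjusted p = 0.108, limma) and that of Rpl10 was 0.14, and the log ratio differed by -0.58 (exact permutation p = 0.0022) over 12 livers and by -0.59 over 10. Between 1 and 30 reads stood behind each value. Ide, the gene around it on the same strand, was at 54.6 TPM with a log2 fold change of -0.40 (unadjusted p = 0.00955). The log ratio of Rpl14-ps1 to Rpl14 differed by 0.16 (exact permutation p = 0.013), and by 0.10 over 10 livers (p = 0.0476 by the same exact test). Rps6-ps1, Rpl7a-ps5 and Rpl15-ps3 also had a p under 0.05 over 12 livers, with differences of -0.49, -0.36 and 0.60, and none of these 3 had one over 10 livers (exact permutation p = 0.0714, 0.175 and 0.111). Rpl3-ps1, Rps10-ps2 and Rps24-ps2 had one over 10 livers and not over 12.

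The members were also grouped by the sequence they share with the parent, with no test between the classes. For the 14 members with 0 substitutions the median absolute change of the ratio was 0.04 over 10 livers, compared with 0.09 for the 36 with 1 to 5 and 0.12 for the 36 with more than 5. Grouped by the share of windows that occur in the parent, the order did not hold: the value was 0.127 for the 23 members with under 1/3 of windows shared, 0.0536 for the 27 in between and 0.0877 for the 37 with over 2/3, and 4 of the 5 ratios with an exact permutation p under 0.05 over 10 livers were among these 37. The 14 members with 0 substitutions were also the more abundant, so that sequence and depth moved together here. Of them, 6 were called higher over 12 livers (background 9.09%; 10 of the other 73 members) and 11 over 10 livers (background 15.4%; 32 of the other 73). The 14 members inside another gene on the same strand had a median log2 fold change of 0.05, the 25 inside a gene on the opposite strand 0.16 and the 48 inside no other gene 0.19 over 12 livers. Over 10 livers these medians were 0.21, 0.30 and 0.22, so the low value of the first class was not found there. The gene around the member was tested for 9 of the 14. The member was nearer to that gene than to its parent in 3 cases, among them Rpl10-ps6 in Ide and Rpl10-ps5 in Nup93.

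The 2 WT livers that stood apart did so in both the members and the ribosomal protein genes. In LacZ replicate 2, 46 of 87 members lay above all the other LacZ livers and 29 below, and 20 were listed at 0, with a root mean square deviation from the group median of 1.14 on the log2 scale (0.313 for all ribosomal protein genes tested). In HuR KD replicate 6, 44 lay below and 21 above, with a deviation of 0.921 (0.613 for ribosomal protein genes). The other 10 livers had deviations of 0.184 to 0.305 for the members and 0.0431 to 0.177 for the ribosomal protein genes. They were not uniform: HuR KD replicate 4 held the upper end of both ranges. In it 37 of 87 members lay above all the other HuR KD livers and 5 below, and the ribosomal protein genes had their highest summed TPM in WT, 15391. HuR KD replicate 4 was kept in the results over 10 livers. Rps23-ps2 was at 0 in LacZ replicate 2 and at 16.97 to 21.9 TPM in the other LacZ livers, Rpl21-ps15 at 21.1 TPM against 2.87 to 4.76 TPM, and Rpl10a-ps1, with no window of its own, at 148 TPM against 74.2 to 79.8 TPM. Rps18-ps1 was at 0.409 TPM in HuR KD replicate 6 and at 9.90 to 19.9 TPM in the other HuR KD livers, whereas Rps18 was at 182 TPM against 166 to 209 TPM. In HuR KD replicate 6 a member deviated in the same direction as its parent in 63 of 87 cases, and in LacZ replicate 2 in 45 of 87. LacZ replicate 2 had the fewest reads of all libraries, and HuR KD replicate 6 had less than the 29787812 of the next HuR KD library; the part of depth was not tested.

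**Figure D5:**
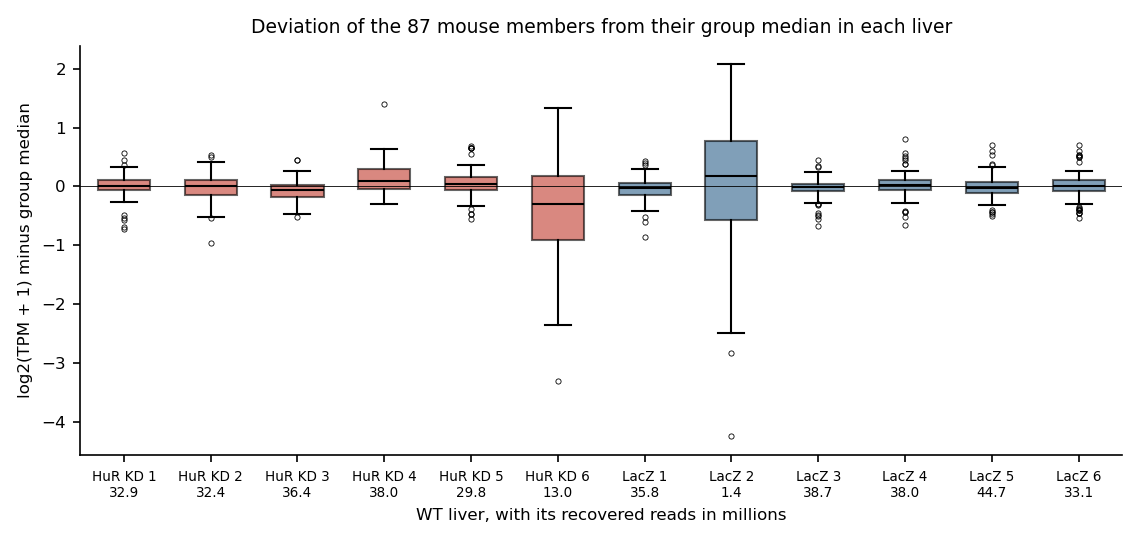
Deviation of the 87 mouse ribosomal protein pseudogenes from the median of their group in each WT liver, on the log2(TPM + 1) scale; boxes span the quartiles with the median as a line, whiskers reach the last value within 1.5 times the box, circles lie beyond, and recovered reads stand under each liver. HuR KD 6 and LacZ 2 spread widest, and the other 10 livers stay nearer to 0.

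Other pseudogenes gave the following values beside these. In the humanized livers 55 processed pseudogenes of other abundant genes (such as EEF1A1, GAPDH, FTH1 and HNRNPA1) had a median log2 fold change of -0.18. Of these, 10 were lower (background 7.87%) and 2 higher (background 3.6%). The 754 pseudogenes of all other kinds and families had -0.05, with 46 lower and 20 higher, beside the same backgrounds. In the WT livers 10 copies of those other families had 0.11, with 1 higher (background 9.09%) and 0 lower (background 6.94%). There 1287 other pseudogenes had 0.08, with 87 higher and 43 lower, beside the same backgrounds. No test was made between these lists and the ribosomal protein copies.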

How the data were processed

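Livers of 8 humanized and 12 WT mice were measured by stranded total RNA sequencing (paired-end, 75 and 50 bases). The authors trimmed reads with cutadapt and aligned them with HISAT2, using a joint human and mouse index for the humanized livers. Counts came from featureCounts, and the values deposited by the authors are TPM; the handling of reads with several alignments is not given in the sources used here. Submitters' processing notes name Trim Galore and the builds mm10 and GRCh38. Members, gene lists and tests were chosen with earlier results of these data known. TPM were compared as log2(TPM + 1) with limma 3.58.1 (lmFit, eBayes with trend, R 4.3.3) for genes with a mean of at least 1 TPM, each set apart, calling a gene at an unadjusted p under 0.05, with Benjamini-Hochberg adjustment over all genes tested. Nothing in the labels ties replicates to more than separate livers. Member to parent ratios were compared by exact two-sided permutation over all 70 (humanized) or 924 (WT) groupings. The parent was read from the symbol; Y-linked genes were left out. Genes were named by a rule: HuR, and of the members the 8 highest, the 4 raised and 4 lowered with the smallest p and no overlap, the 3 highest and lowest ratios, up to 3 changed ratios at the smallest exact p and those beside the threshold; the others were named after their values were seen, and 1 member that the rule names is not reported here.

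Whole reads were recovered from the TPM steps (genes above 0 in at least 4 libraries). They are the smallest whole numbers that fit, so the reads of a gene are known up to a common factor. Mouse copies were aligned to parent transcripts of GENCODE M21 (GRCm38; the files used M23) with Biopython 1.88 (match 2, mismatch -3, gap -5 and -2), 302 of 304 having a parent by name. No human sequences were used here. Scripts were tested on simulated data. Alternatives were log2(TPM + 0.1), no filter, a mean of at least 5 TPM, eBayes without trend, quantile normalization, median-of-ratios factors, a replicate block, adjusted p and each liver left out. The 2 WT livers left out together, the 3 shallowest humanized libraries left out and voom on recovered reads were added after seeing the data.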

Additional observations from a re-analysis of the deposited data

Results flagged for a closer look

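A liver was set apart by Dixon's ratio, the gap between the most extreme liver of a group and its neighbour over the range of the group, which chance exceeds in about 1 in 20 groups. It was applied to the members' share and to each named member in both groups. Over 66 groups it flagged 21 livers. These groups are not independent, because the same livers enter the groups of many members. In the WT livers most such values were those of the 2 livers described above. LacZ replicate 2 held the highest share (18.6%) and the highest LacZ values of Rpl38-ps2 (390 TPM), Rpl36a-ps2 (143 TPM), Rpl10a-ps1 (148 TPM), Rpl19-ps11 (143 TPM), Rps10-ps2 (116 TPM) and Rps15-ps3 (8.09 TPM). HuR KD replicate 6 held the lowest share (14.4%), the lowest HuR KD values of Rpl39-ps (87.1 TPM), Rpl19-ps11 (52.4 TPM) and Rps10-ps2 (52.6 TPM), and the highest of Rpl36a-ps2 (170 TPM), Rpl17-ps10 (81.9 TPM) and Rps15-ps3 (4.63 TPM). LacZ replicate 6 was the highest LacZ liver for Rpl39-ps (169 TPM) and LacZ replicate 1 for Rpl10-ps6 (3.31 TPM).

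In the humanized livers LacZ replicate 4 was the highest LacZ liver for RPS3AP6 (20.05 TPM, next 10.5 TPM) and RPL6P27 (47.8 TPM, next 24.8 TPM). HuR KD replicate 4 was the highest HuR KD liver for RPS12P27 (1.07 TPM, the others at 0), HuR KD replicate 1 for RPL31P7 (8.48 TPM, the others at 0) and HuR KD replicate 2 for RPL10AP6 (8.17 TPM, next 3.32 TPM).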

How the results depend on the processing

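Depth limits single members, of which the median rested on 3 to 3.5 reads in the shallowest libraries. With the 5 deepest humanized libraries, 672 genes were called (1461 with all) and 3 members were higher (background 2.9%), compared with 0 with all. The members' median was -0.069, and RPL39P3 and RPL41P1 turned to 0.016 and 0.27. Without HuR KD 6 and LacZ 2, 43 WT members were higher (background 15.4%) in place of 16 (background 9.09%), and Rpl19-ps11 and Rpl10-ps1 turned to 0.18 and 0.22. The causes were not tested.

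In the humanized livers 1 member was higher with eBayes without trend (background 3.51%) and 1 with log2(TPM + 0.1) (background 3.6%). Without a filter 1 was higher (background 2.01%), and the median over all named copies was -0.049. Voom on recovered reads gave 4 lower members (background 5.98%) and a median of -0.14. At a mean of at least 5 TPM, 931 genes were called and 1 ratio of 38 pairs changed. With adjusted p, 27 genes and 1 lower member remained called. In the WT livers 9 members were higher with median-of-ratios factors, where 7.83% of all genes were (9.09% in the report's fit). The count of lower members was 0 at a mean of at least 5 TPM (background 8.6%), 2 without a filter (background 3.86%) and 2 with voom (background 7.75%). At 5 TPM, 1 ratio of 52 pairs changed. With adjusted p, 134 genes, 0 higher and 0 lower members were called. Rpl19-ps11, Rps15-ps3 and Rpl10-ps1 turned to 0.088, 0.048 and 0.34 with voom. Higher calls were 31.3% of all humanized calls, and 47.5% and 47.3% with median-of-ratios factors and quantile normalization.

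Replicate numbers did not pair the livers: deviations of same-numbered livers correlated between -0.249 and 0.137 (humanized) and between -0.142 and 0.206 (WT), and 2 of 8 and 3 of 12 livers correlated best with their own number. With a replicate block, 11 humanized members were lower (background 7.76%) and 0 higher (background 3.23%). In WT, 14 members were higher (background 8.03%) and 1 lower (background 6.83%). With the block 1401 humanized and 2242 WT genes were called. There 1 WT ratio changed, and 0 humanized ratios, which cannot reach 0.05 in that design.

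Leaving out each humanized liver in turn gave 1098 to 1954 genes, 0 to 3 higher members (backgrounds 2.33 to 4.57%) and 7 to 13 lower (backgrounds 5.19 to 11.2%). The count of 13 came without HuR KD replicate 4 (background 8.39%). These fits gave medians of -0.28 to -0.18, 1 to 5 ratios and share differences of 0.135 to 1.00 percentage points. In WT, leaving out each liver gave 1911 to 2848 genes, 7 to 22 higher members (backgrounds 6.77 to 12.4%) and 1 lower (backgrounds 5.33 to 7.87%). The WT fits gave medians of 0.11 to 0.21, 3 to 7 ratios and share differences of -0.785 to -0.124. Members that were not called changed sign in these fits: RPS28P7 (-0.0024 to 0.24), RPL10P6 (-0.29 to 0.016), RPL41P1 (-0.41 to 0.088), RPS12P26 (-0.074 to 0.64), RPS27P29 (-0.42 to 0.48), Rpl39-ps (-0.031 to 0.17), Rpl19-ps11 (-0.15 to 0.053), Rps15-ps3 (-0.29 to 0.15) and Rpl10-ps1 (-0.23 to 0.11). Of 624 recomputed values of the 34 named members, 557 kept direction and side of the threshold.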
